A study of Mus musculus with 12 samples.

Results

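Nuclear genes for the 5 complexes of oxidative phosphorylation were followed in mouse primary CD8+ T cells after knockdown of *Creb1* with or without trans-vaccenic acid (TVA). The 99 genes were chosen by name (symbols starting with *Nduf*, *Sdha* to *Sdhd*, *Uqcr*, *Cox* plus a digit, or *Atp5*), protein-coding biotype and a mean of at least 1 FPKM over the same 12 libraries. They are 99 of 107 protein-coding genes with such names, of 11550 genes past the same minimum and of 54532 genes listed. All cells were wild-type CD8+ T cells, activated, transfected with siRNA and kept for 24 h with the fatty acid or its vehicle. The 4 groups of 3 libraries were siNTC (non-targeting siRNA with DMSO), siNTC plus TVA, si*Creb1* (siRNA against *Creb1* with DMSO) and si*Creb1* plus TVA. The knockdown was transient and partial, and no source used here says whether the 3 libraries of a group came from separate mice, so p-values measure the spread between libraries, which may be technical.

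Oxidative phosphorylation is the last stage of respiration. Complexes I and II pass electrons from NADH and succinate to ubiquinone, complex III hands them to cytochrome *c*, complex IV reduces oxygen with them, and complex V, the ATP synthase, makes ATP from the resulting proton gradient. Most subunits are encoded in the nucleus, and a smaller set of core subunits of complexes I, III, IV and V in mitochondrial DNA, so that assembly needs products of both genomes. Activated T cells expand their mitochondria as they grow and divide. CREB, the protein of *Creb1*, is a transcription factor that binds the cAMP response element and answers to protein kinase A.

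*Creb1* (chromosome 1, 64532645 to 64604548, GRCm38) was measured at 10.3 to 12.4 FPKM in the 6 siNTC libraries and 1.17 to 1.81 FPKM in the 6 si*Creb1* libraries. The libraries thus went with the siRNA part of their labels, while *Creb1* does not check the TVA part. The si*Creb1* mean was 13.2% of the siNTC mean (exact permutation test over libraries, two-sided, n = 6 and 6, p = 0.00216). Libraries held 16660234 to 24602484 recovered reads. Depth went with the group: siNTC plus TVA had 16660234 to 20263843 reads and si*Creb1* plus TVA 21804748 to 24602484. Genes above 0 numbered 19456 to 19945 and 20417 to 20993 in these 2 groups. Replicate pairs had a chi-square of 3.54 to 5.29 per degree of freedom, more than counting error alone gives. The labelled cell type had its defining markers. Markers of CD8+ T cells summed to 2651 to 2835 FPKM, those of NK cells to 32.8 to 36.8 FPKM, and those of B, CD4+ T, myeloid, dendritic and red blood cells to at most 14.2 FPKM each. These are bulk samples, in which fewer cells of a type and less RNA per cell cannot be told apart.

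The levels of the 99 genes spanned 1.13 to 410 FPKM, with a median of 34.8 FPKM against 8.17 FPKM over all genes tested. FPKM scales reads to the listed gene length and to library size, and that length of a member was 1756 bases at the median against 3738 bases over all genes tested. Core subunits, which carry the redox centres or the catalytic and rotary parts, had a median of 63.3 FPKM (n = 20). Accessory subunits had a median of 40.0 FPKM (n = 57), and genes classed as assembly factors a median of 5.88 FPKM (n = 22). Most assembly factors help build the complexes without staying in them. The class as used here also holds *Cox7a2l*, a factor of respiratory supercomplexes. By complex the medians were 27.5 FPKM for complex I (n = 44), 20.5 for II (n = 7), 57.0 for III (n = 8), 36.7 for IV (n = 23) and 60.7 for V (n = 17).

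In complex I the highest members were *Ndufa2* (93.4 FPKM) and *Ndufb11* (92.9 FPKM), both accessory subunits, and the lowest were *Ndufb2* (1.13 FPKM) and the assembly factor *Ndufaf2* (2.44 FPKM). In complex II *Sdhd*, a membrane anchor (73.3 FPKM), and *Sdha*, the flavoprotein that oxidises succinate (62.2 FPKM), stood above the assembly factors *Sdhaf4* (7.94 FPKM) and *Sdhaf1* (1.74 FPKM). In complex III *Uqcrh*, the hinge protein (155 FPKM), and *Uqcrfs1*, the Rieske iron-sulphur protein (106 FPKM), were highest, and *Uqcrq* (37.4 FPKM) and *Uqcrc1* (38.4 FPKM) lowest. In complex IV *Cox7a2l*, a factor of respiratory supercomplexes (410 FPKM), and *Cox8a* (354 FPKM) were highest, and *Cox17*, a copper chaperone (1.51 FPKM), and *Cox6b2* (2.01 FPKM) lowest. In complex V *Atp5a1* and *Atp5b*, the paired subunits of the catalytic head, reached 204 and 179 FPKM, and *Atp5s* (1.70 FPKM) and *Atp5g1* (8.76 FPKM) were lowest. The gene just inside the minimum was *Ndufb2*, whose siNTC mean alone (0.822 ± 0.0875 FPKM, SD, n = 3) was under it, and the one just outside was the assembly factor *Sdhaf3* (0.83 FPKM). The listed length of *Ndufb2*, 5628 bases, is long for a small subunit and lowers its FPKM. *Ndufb2* also shares exon bases on the same strand with the protein-coding gene *Gm42420* (0.019 FPKM), as *Cox17* does with *Gm21987* (0 FPKM). How reads in shared bases were counted is not given in the sources used here, so these low values may not reflect expression.

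**Figure D1:**
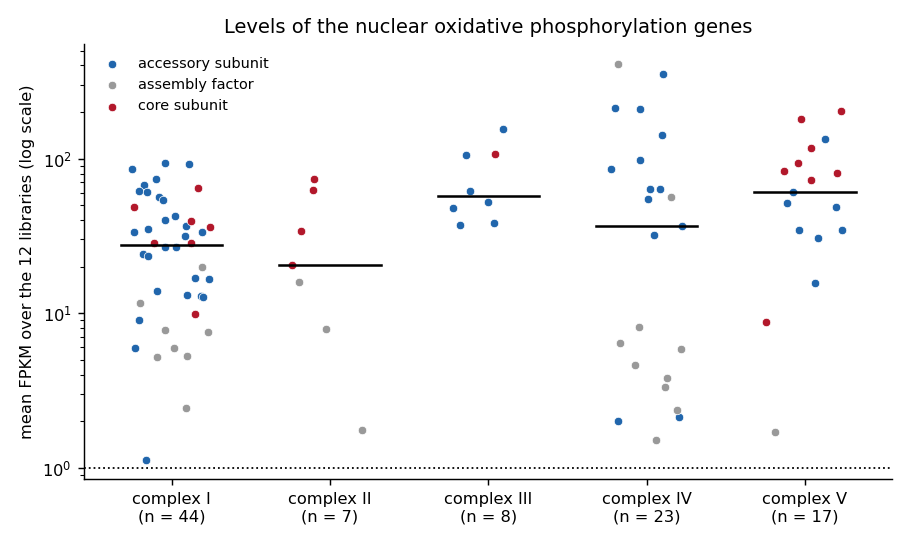
Each point is one of the 99 genes at its mean FPKM over the 12 libraries (log axis) by complex, coloured as core subunit, accessory subunit or assembly factor, with the median of each complex as a bar and the minimum of 1 FPKM dotted. The median is 5.88 FPKM for assembly factors and 63.3 FPKM for core subunits, the ranges overlap, and the highest point is the assembly factor *Cox7a2l* at 410 FPKM.

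Where a subunit has several gene forms, the broadly expressed form carried the reads. *Cox4i1* was at 214 FPKM and *Cox4i2*, the form known from lung, at 0.06 FPKM. *Cox6a1* was at 209 FPKM and the heart and muscle form *Cox6a2* at 0.20 FPKM. *Cox8a* was at 354 FPKM, with *Cox8b* at 0.05 FPKM and *Cox8c* listed at 0 in every library. *Cox7b* was at 85.2 FPKM with *Cox7b2* listed at 0, and *Ndufa4* at 54.7 FPKM with *Ndufa4l2* at 0.01 FPKM. *Cox6b1* was at 141 FPKM and *Cox6b2*, a testis form, at 2.01 FPKM. *Cox7a2* was at 63.8 FPKM and the muscle form *Cox7a1* at 2.12 FPKM. The 3 genes for the c subunit of the ATP synthase ring, which encode the same mature protein, were at 80.3 FPKM for *Atp5g2*, 73.0 FPKM for *Atp5g3* and 8.76 FPKM for *Atp5g1*. The 8 genes under the minimum were *Sdhaf3*, these 6 forms of complex IV subunits (*Cox4i2*, *Cox6a2*, *Cox7b2*, *Cox8b*, *Cox8c* and *Ndufa4l2*) and a second listed *Atp5o* gene at 0.

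Summed over the members, reads for these genes made up 0.871 to 0.901% of all reads in siNTC and 0.902 to 0.911% once TVA was added. In si*Creb1* cells the share was 0.852 to 0.867% with DMSO and 0.842 to 0.856% with TVA. On this share the siNTC plus TVA libraries lay above all others, and the si*Creb1* libraries, with or without TVA, lay under all siNTC libraries. On the share of summed FPKM the groups overlapped, at 1.49 to 1.54% in siNTC and 1.51 to 1.58% with TVA, and at 1.50 to 1.53% and 1.45 to 1.52% in si*Creb1* cells without and with TVA. The mean log2(FPKM + 1) of the members was 4.90 ± 0.03 in siNTC and 4.95 ± 0.0099 with TVA, and for si*Creb1* it was 4.87 ± 0.02 with DMSO and 4.85 ± 0.0049 with TVA (SD, n = 3 each). The group with the highest mean was siNTC plus TVA for 57 members and si*Creb1* plus TVA for 7, and the group with the lowest mean was si*Creb1* plus TVA for 55 members and siNTC plus TVA for 7. These counts were not made over all genes tested, so they cannot be called particular to the members. The differences were small. The range of the 4 group means was 0.16 at the median over members on the log2 scale, beside a within-group SD of 0.08.

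Group means are given by complex as a description, with no test of differences between complexes. They cover the core and accessory subunits of each complex and leave out its assembly factors. Complex V had its highest mean in siNTC plus TVA (5.97 ± 0.0038 on the log2(FPKM + 1) scale, against 5.92 ± 0.02 in siNTC) and its lowest in si*Creb1* plus TVA (5.85 ± 0.04), and complex I kept the same order (4.98 ± 0.03, 4.92 ± 0.05 and 4.85 ± 0.0016). Complex IV stood at 5.86 ± 0.01 in siNTC plus TVA and at 5.78 in each of the other groups. Complex III was at 6.14 ± 0.03 in siNTC and 6.12 ± 0.03 in siNTC plus TVA, and at 6.04 ± 0.04 and 6.02 ± 0.03 in the si*Creb1* groups, whose libraries all lay under the siNTC libraries. Complex II differed least (5.42 to 5.47).

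**Figure D2:**
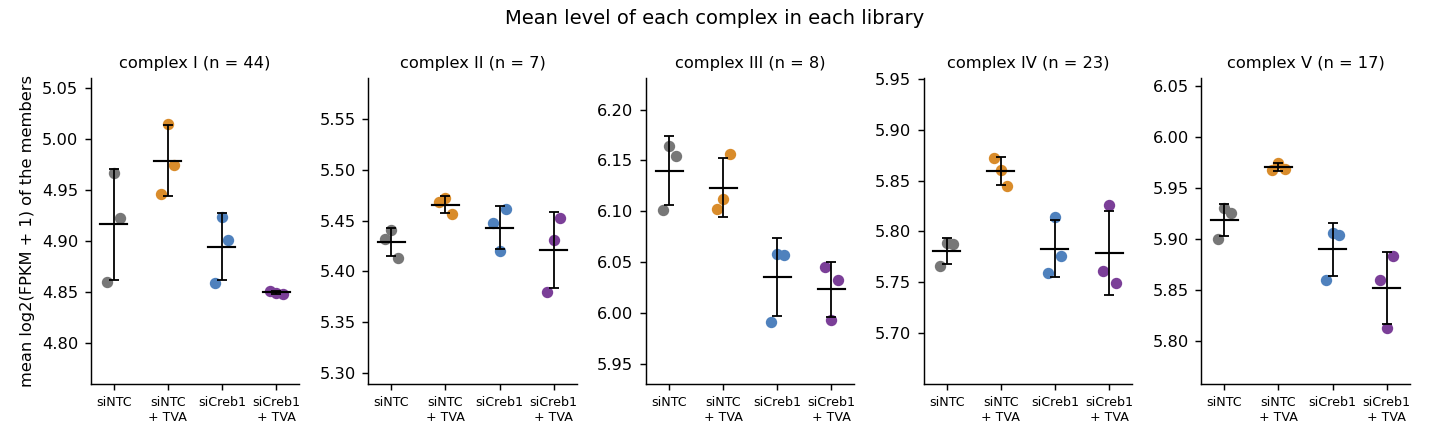
Points are the mean log2(FPKM + 1) over the core and accessory subunits of a complex in each of the 12 libraries. Assembly factors are left out of these means, although the numbers in the panel titles count them. Group means and SD (n = 3) are bars, and each panel spans the same height of 0.3. Complexes I, II, IV and V have their highest mean in siNTC plus TVA, and complex III is lower in all 6 si*Creb1* libraries than in the 6 siNTC libraries.

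Whether TVA changed these genes in control cells was asked by comparing siNTC plus TVA with siNTC. Of the 99 members 2 rose and 1 fell (limma on log2(FPKM + 1), with p adjusted by Benjamini-Hochberg across the 11550 genes and called under 0.05), beside 4.49% of all genes tested called higher and 2.88% called lower, so the share of members called was not above that of other genes. *Atp5g2* (chromosome 15, 102662864 to 102672352), a c subunit gene, was at 76.9, 76.1 and 77.4 FPKM in siNTC and 86.7, 86.3 and 81.4 FPKM in siNTC plus TVA, without overlap. It rose by 0.14 ± 0.04 on the log2(FPKM + 1) scale (SE, adjusted p = 0.0358). *Ndufb3* (chromosome 1, 58586384 to 58595964), an accessory subunit of the membrane arm of complex I, was at 50.3, 52.9 and 50.1 FPKM in siNTC and 55.2, 63.2 and 57.0 FPKM in siNTC plus TVA. It rose by 0.19 ± 0.05 (adjusted p = 0.0483), with 1 library well above the other treated ones. *Cox7a2l* (chromosome 17, 83501919 to 83514333) was at 470, 456 and 439 FPKM in siNTC and 422, 413 and 403 FPKM in siNTC plus TVA, and its log2 value fell by 0.14 ± 0.03 (adjusted p = 0.0183). *Cox7c* (log2 difference 0.17 ± 0.05, adjusted p = 0.0507) and *Uqcrh* (-0.08 ± 0.02, adjusted p = 0.0643) were next and did not pass.

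The 3 c subunit genes differed in what the test called. *Atp5g3* had group means of 73.0 ± 1.57 and 76.0 ± 3.28 FPKM in siNTC and siNTC plus TVA, and *Atp5g1* 9.19 ± 0.36 and 8.76 ± 0.90 FPKM, and neither passed. The median log2 fold change of the members was 0.05, beside -0.01 over all genes tested, with 66 of 99 members above 0. By complex it was 0.06 for complex I, 0.05 for II, 0.00 for III, 0.03 for IV and 0.06 for V. It was 0.08 for accessory subunits (45 of 57 above 0), 0.01 for core subunits and -0.00 for assembly factors. All 3 siNTC plus TVA libraries lay above all 3 siNTC libraries for 13 members (13.1%), beside 11.7% of all genes tested. The 3 calls were not stable: without replicate 2 of siNTC plus TVA no member passed, without replicate 3 of that group 1 did, and limma-voom on the recovered reads called 7.

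In si*Creb1* cells the same question compared si*Creb1* plus TVA with si*Creb1*. No member passed (limma, 0 of 99, with 9 at an unadjusted p under 0.05 and 0 by limma-voom), beside 0.537% of all genes tested. The 5 with the smallest unadjusted p all had negative log2 differences and did not pass. *Cox14*, an assembly factor of complex IV, had means of 62.1 ± 1.73 and 55.5 ± 0.46 FPKM without and with TVA (adjusted p = 0.0759). *Cox4i1* (adjusted p = 0.148), *Atp5b* (0.309), *Cox6b1* (0.363) and *Ndufb10* (0.389) followed, at log2 differences between -0.13 and -0.07. The median log2 fold change of the members was -0.03, beside -0.00 over all genes tested, and 29 of 99 members were above 0. In TPM over protein-coding genes it was -0.0025, beside 0.025 over all genes tested.

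The difference between these TVA effects was tested as the interaction of siRNA and TVA. No member passed (0 of 99, with 13 at an unadjusted p under 0.05, beside 2.24% of all genes tested called), so a TVA effect that differs between siNTC and si*Creb1* cells was not shown for any single member. *Ndufb3* was nearest (log2 difference of the effects -0.32 ± 0.07, adjusted p = 0.05001) and passed by limma-voom, where it was the 1 member called. *Cox6b1* (-0.19 ± 0.05, adjusted p = 0.0913), *Atp5g2* (-0.18 ± 0.05, 0.103), *Atp5b* (-0.10 ± 0.03, 0.143) and *Cox7c* (-0.20 ± 0.07, 0.170) followed. The median over members was -0.07, beside 0.00 over all genes tested, and 75 of 99 members were below 0. It was -0.09 for complex I, -0.07 for II, 0.00 for III, -0.03 for IV and -0.08 for V.

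**Figure D3:**
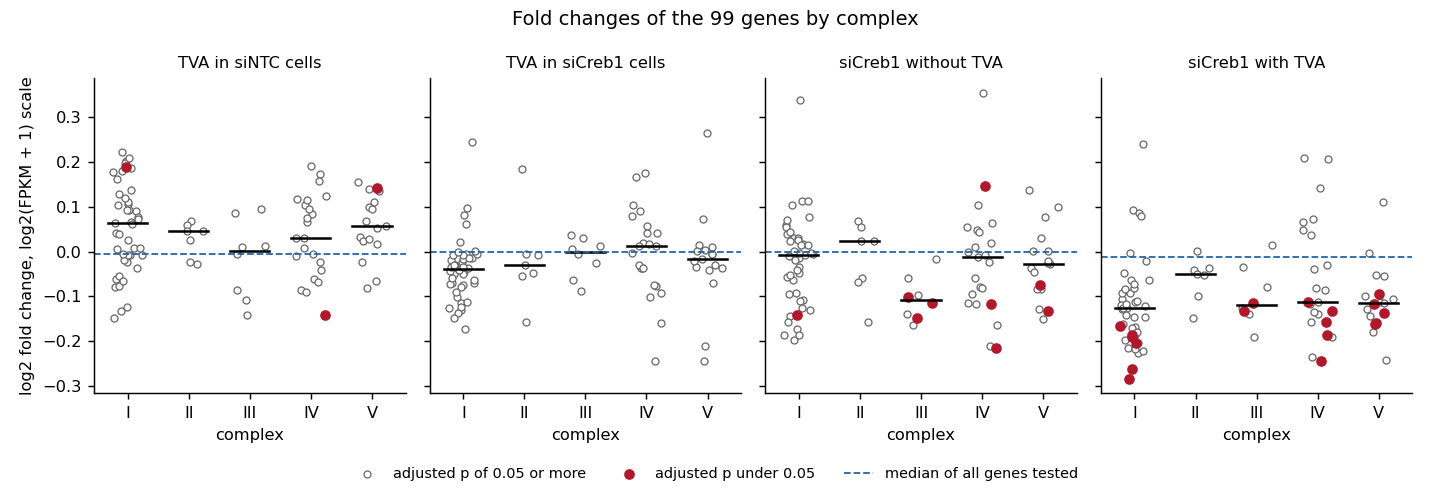
Each point is the log2 fold change of one of the 99 genes on the log2(FPKM + 1) scale, by complex, in 4 comparisons. Filled points passed an adjusted p under 0.05, bars are medians of each complex and the dashed line is the median of all genes tested. With TVA, 18 filled points lie below 0 in si*Creb1* cells and none above it, and the sign of the median without TVA turns when FPKM are rescaled to TPM.

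The effect of the knockdown itself was read first without TVA, as si*Creb1* against siNTC. Of the 99 members 8 fell and 1 rose, beside 7.21% of all genes tested called lower and 6.52% called higher. The share of members called lower was near that of all genes. *Cox7a2l* fell most among them, by 0.22 ± 0.03 on the log2 scale (adjusted p = 0.0015), from 470, 456 and 439 FPKM to 399, 383 and 393 FPKM. *Cox4i1* (chromosome 8, 120668222 to 120674207), a nuclear subunit that stabilises the core of complex IV, was at 229, 225 and 227 FPKM in siNTC and 206, 210 and 214 FPKM in si*Creb1*. The libraries did not overlap, and its log2 value fell by 0.12 ± 0.02 (adjusted p = 0.00292). *Cox14* (chromosome 15, 99725618 to 99728136), needed to make the mitochondrially encoded *mt-Co1* protein part of complex IV, rose from 58.3, 54.6 and 55.2 FPKM to 60.6, 61.8 and 64.0 FPKM (log2 difference 0.15 ± 0.03, adjusted p = 0.0138).

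Complex III held 3 of the 8. *Uqcrh* went from a mean of 165 ± 3.82 to 154 ± 2.65 FPKM (adjusted p = 0.0221), *Uqcrc1*, an accessory subunit on the matrix side, from 41.1 ± 1.04 to 37.0 ± 1.32 FPKM (adjusted p = 0.0269) and *Uqcrfs1* from 111 ± 2.95 to 102 ± 3.74 FPKM (adjusted p = 0.0399). All 8 complex III members had log2 differences below 0 (median -0.11), and for 5 the si*Creb1* libraries lay under all siNTC libraries, as for 20 of the 99 members (20.2%) and 16.0% of all genes tested. The others included *Atp5j2*, a small membrane subunit of complex V (35.9 ± 0.64 to 32.6 ± 0.96 FPKM, adjusted p = 0.0343) and *Atp5c1*, the central stalk (120 ± 0.65 to 113 ± 1.85 FPKM, adjusted p = 0.0431). The median over all members was -0.02, beside -0.00 over all genes tested, with 62 of 99 below 0, and it turned to 0.02 when FPKM were rescaled to TPM, where all genes tested had a median of 0.04. Of the 9 calls, 2 passed after rescaling to TPM and after quantile normalization (*Cox7a2l* and *Cox14* both times), and 4 passed without each si*Creb1* library in turn.

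With TVA present in both arms, more members separated. Against siNTC plus TVA, 18 of 99 members (18.2%) fell in si*Creb1* plus TVA and none rose, beside 5.51% of all genes tested called lower and 4.64% called higher. In 41 members (41.4%) all 3 si*Creb1* plus TVA libraries lay under all 3 siNTC plus TVA libraries, which held for 17.6% of all genes tested. This share rose with level. Over all genes tested it was 9.81% under 10 FPKM, 22.5% from 10 to 50, 39.6% from 50 to 100 and 60.3% at 100 FPKM or more. For members it was 4.17, 48.6, 42.3 and 91.7% in the same classes. The median log2 fold change was -0.12, beside -0.01 over all genes tested, and 85 of 99 members were below 0. The mean FPKM of the 18 fell by 6.46 to 18.1%. The median was -0.08 after quantile normalization and -0.06 after rescaling to TPM, and TPM left 0 of the 18 calls, TPM over protein-coding genes 4 (*Cox4i1*, *Atp5b*, *Ndufb5* and *Cox6b1*) and quantile normalization 2 (*Ndufb5* and *Cox6b1*). Leaving out 1 of the 6 libraries left 5 to 8 of the 18.

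Complex V held 5 of the 18. *Atp5b* (chromosome 10, 128083273 to 128090391), the catalytic subunit, was at 186, 186 and 189 FPKM in siNTC plus TVA and 170, 168 and 171 FPKM in si*Creb1* plus TVA. The arms were well apart, and its log2 value fell by 0.14 ± 0.02 (adjusted p = 0.00494). Its partner *Atp5a1* went from 212 ± 2.65 to 196 ± 3.55 FPKM (adjusted p = 0.0264), *Atp5c1* from 122 ± 2.92 to 114 ± 0.94 FPKM (adjusted p = 0.0215), the peripheral stalk gene *Atp5f1* from 54.8 ± 0.25 to 48.9 ± 0.04 FPKM (adjusted p = 0.0162) and *Atp5j2* from 36.6 ± 1.71 to 32.7 ± 0.78 FPKM (adjusted p = 0.0218). All 16 complex V subunits had differences below 0, and for 11 the libraries did not overlap. Such a separation held for 17.6% of all genes tested and was more frequent at higher levels, as given above. *Atp5g2*, which rose with TVA in siNTC cells, had 84.8 ± 2.97 FPKM in siNTC plus TVA and 78.8 ± 2.51 FPKM in si*Creb1* plus TVA and did not pass.

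Complex IV also held 5. *Cox4i1* was at 219, 217 and 218 FPKM in siNTC plus TVA and 199, 198 and 199 FPKM in si*Creb1* plus TVA, with narrow arms, and its log2 value fell by 0.13 ± 0.02 (adjusted p = 0.00268). *Cox6b1*, on the intermembrane side of the complex, was at 152, 154 and 144 FPKM and 131, 127 and 138 FPKM (fell by 0.19 ± 0.04, adjusted p = 0.00929). *Cox7a2* went from 70.2 ± 4.73 to 59.0 ± 3.00 FPKM, *Cox6a1* from 226 ± 8.21 to 202 ± 2.92 FPKM and *Cox7a2l* from 413 ± 9.18 to 382 ± 9.15 FPKM (adjusted p = 0.0311, 0.0339 and 0.0427). *Cox14*, the member that rose without TVA, had 52.8 ± 1.64 and 55.5 ± 0.46 FPKM here and did not pass.

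Complex I held 6, among them the largest falls. *Ndufb5* (chromosome 3, 32736990 to 32751566), an accessory subunit of the membrane arm, was at 14.4, 14.5 and 13.7 FPKM in siNTC plus TVA and 12.5, 12.4 and 12.1 FPKM in si*Creb1* plus TVA (fell by 0.19 ± 0.03, adjusted p = 0.00785). *Ndufa1*, on the X chromosome, went from 96.7, 99.7 and 91.9 FPKM to 80.6, 77.4 and 78.1 FPKM, the largest fall of the 18 (0.28 ± 0.08 on the log2 scale, adjusted p = 0.0419). *Ndufa2* went from 98.8 ± 2.35 to 82.3 ± 3.02 FPKM, *Ndufb3* from 58.5 ± 4.16 to 50.6 ± 2.60 FPKM and *Ndufb10* from 70.6 ± 1.05 to 62.0 ± 2.54 FPKM (adjusted p = 0.0403, 0.0302 and 0.0322). Of the 36 complex I subunits 34 were below 0, with a median of -0.14, and the 8 complex I assembly factors, at 2.44 to 19.9 FPKM, held no call.

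Complex III held 2, *Uqcrfs1* (110 ± 3.12 to 102 ± 1.61 FPKM, adjusted p = 0.0494) and *Uqcrc2*, an accessory subunit beside *Uqcrc1* (54.5 ± 0.51 to 49.7 ± 2.12 FPKM, adjusted p = 0.0434). Complex II held none, with its 4 subunits between -0.05 and -0.04. Core subunits had 5 calls of 20 and a median of -0.10, accessory subunits 12 of 57 and -0.13, and assembly factors 1 of 22 (*Cox7a2l*) and -0.08, beside 5.51% of all genes tested called lower. These roles differ in level, with medians of 63.3, 40.0 and 5.88 FPKM, and the share of all genes called lower rises with level. A difference between roles was not tested. Of the 22 members called in any comparison, 5 share exon bases with a gene on the opposite strand that itself reached 1 FPKM (*Atp5a1*, *Atp5f1*, *Cox4i1*, *Ndufa2* and *Ndufb5*), and without knowledge of strand in the counting their reads cannot be told from those of the partner. No overlapping partner of these 5 exceeded 16.9 FPKM.

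The calls followed expression level. None of the 24 members under 10 FPKM was called lower, 2 of 37 between 10 and 50 FPKM were, 8 of 26 between 50 and 100 FPKM (30.8%) and 8 of 12 at 100 FPKM or more (66.7%). Over all genes tested the shares called lower in the same classes were 1.87, 6.92, 18.5 and 30.3%, so the share rose with level in the whole table and not for members alone. The median log2 fold change in these classes was 0.01, -0.03, -0.05 and -0.08 for all genes tested and -0.03, -0.12, -0.14 and -0.12 for members. Members are also shorter than most genes, and genes tested with a listed length under 1500 bases had a median of -0.04 against 0.00 at 3000 bases or more, beside -0.13 and -0.09 for the members of those lengths. The part of level, of length and of library depth, which did not overlap between these arms, in the members' values was not tested. Markers of CD8+ T cells, another group of highly expressed genes, moved too: of 8, 3 fell (*Cd8b1*, *Trac* and *Cd3d*) and 1 rose (*Cd8a*) with TVA, and 5 fell and 1 rose without it. Their summed level was 2773 to 2806 FPKM in siNTC plus TVA and 2651 to 2668 FPKM in si*Creb1* plus TVA. Myeloid markers summed to 4.93 to 6.39 FPKM and 7.73 to 8.88 FPKM in the same groups, and *Lyz2*, the 1 of 6 that was tested, rose (adjusted p = 0.0478). Their part in the result was not tested.

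**Figure D4:**
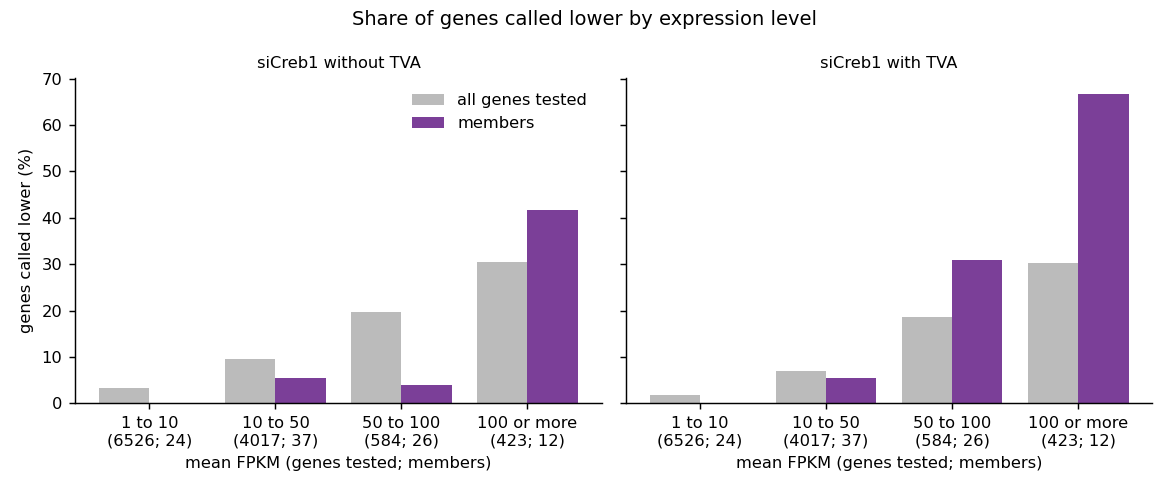
Bars give the percentage of genes called lower (limma, adjusted p under 0.05) by class of mean FPKM for all genes tested and for members, with both numbers of genes under each class, for si*Creb1* against siNTC without and with TVA. The share of all genes rises with level in both panels, that of members is 3.85% without TVA between 50 and 100 FPKM, and with TVA at 100 FPKM or more they are 30.3% of all genes and 66.7% of the 12 members.

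The comparisons with and without TVA share no libraries, but they come from the same fit and use the same variance estimate for a gene. The SE was 0.0183 for *Cox4i1* and 0.0217 for *Atp5c1* in each comparison. A gene with a small variance is thus more easily called in both. The calls are not independent, and their overlap is given as a description. Of the 8 members lower without TVA, 6 (75.0%) were also lower with TVA, which is 33.3% of the 18. Among them were *Cox4i1*, *Cox7a2l*, *Uqcrfs1*, *Atp5c1* and *Atp5j2*. Over all genes tested 266 were lower in both, 31.9% of the 833 called lower without TVA and 41.8% of the 636 called lower with it. Per library, *Atp5j2* was at 35.3, 35.7 and 36.6 FPKM in siNTC and 33.3, 31.5 and 33.0 FPKM in si*Creb1*, and at 37.1, 38.0 and 34.7 FPKM in siNTC plus TVA and 32.6, 31.9 and 33.5 FPKM in si*Creb1* plus TVA. *Atp5c1* was at 120, 120 and 119 FPKM and 113, 112 and 115 FPKM without TVA, and at 121, 119 and 125 FPKM and 114, 113 and 114 FPKM with it. For both genes the si*Creb1* libraries lay under every siNTC library, with or without TVA.

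**Figure D5:**
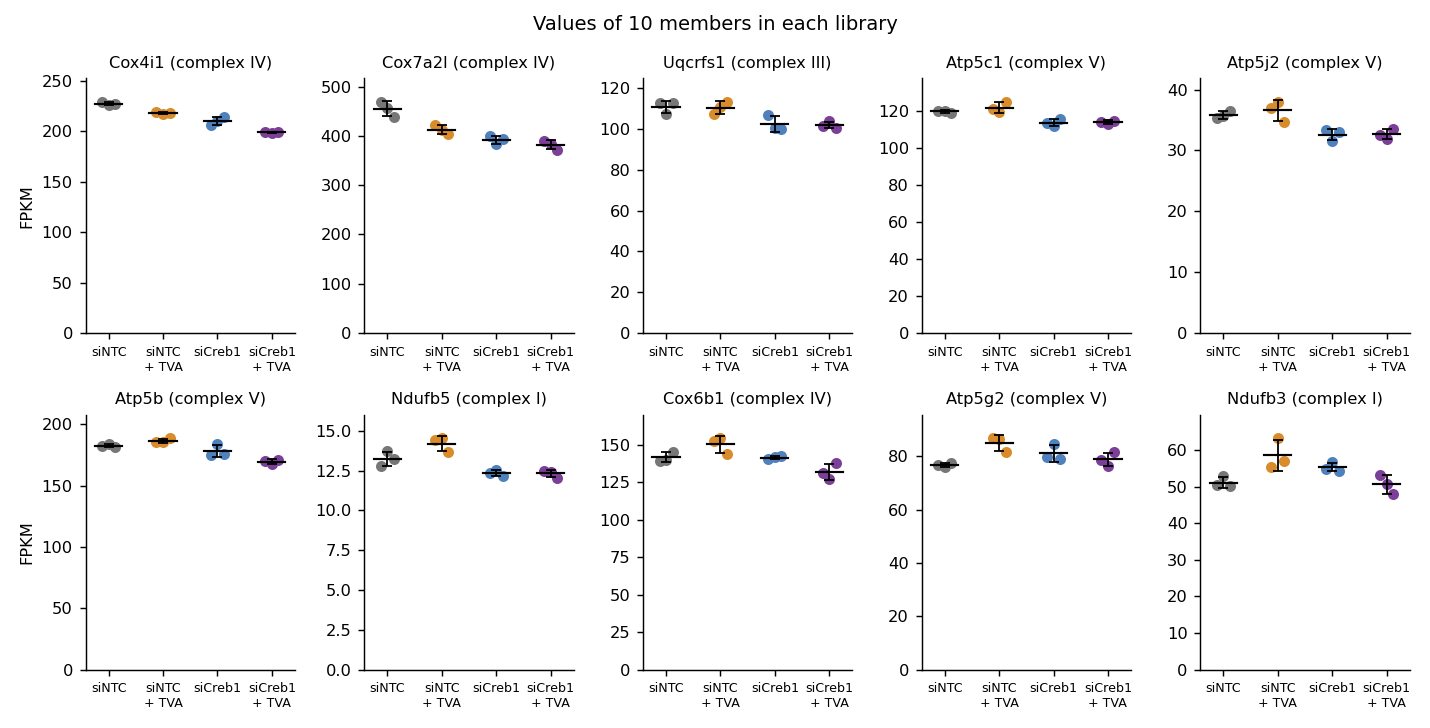
FPKM of 10 members in each of the 12 libraries, with group means and SD (n = 3) as bars and axes that start at 0. The first 5 panels are genes called lower by si*Creb1* both without and with TVA, followed by *Atp5b*, *Ndufb5* and *Cox6b1*, called with TVA, and *Atp5g2* and *Ndufb3*, which rose with TVA in siNTC cells.

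Since the knockdown lowered a DNA-binding factor, the RefSeq promoters (GRCm38.p6, 250 bases before and 50 bases after the start) were searched for its site on both strands. Of the 99 members 84 matched an entry, 82 by symbol and 2 by synonym. Members not matched included *Atp5a1*, *Atp5mpl*, *Cox17*, *Cox18*, *Cox4i1*, *Cox6c*, *Ndufa2*, *Ndufaf6*, *Ndufb9*, *Ndufs1*, *Sdhc*, *Uqcrb*, *Uqcrc2* and *Uqcrq*. The full cAMP response element TGACGTCA, a palindrome, was in 4 members (4.76%: *Ndufa10*, *Ndufa11*, *Ndufb2* and *Uqcrfs1*) and in 2.03% of all 27025 genes of that table. The shorter TGACG, which every full element also holds on each strand, was in 30 members (35.7%) and 23.0% of all genes. Of the 4 with the full element, *Uqcrfs1* alone was called lower, and with TVA *Ndufa10*, *Ndufa11* and *Ndufb2* had log2 differences of -0.09, -0.17 and 0.08.

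Of the 20 members called lower in either knockdown comparison 15 had a promoter entry, and 7 of these held TGACG. The stretches before the start site of the 6 whose match lies upstream are shown to give the place of these letters. TGACG was also in 23.0% of all genes, and a role of these matches in the falls was not tested. Capitals mark TGACGTCA or TGACG on either strand, and each line reads 5′ to 3′ on the strand of the gene. *Uqcrfs1* is at chr13:30545317-30545385 (minus strand), *Atp5b* at chr10:128083057-128083257 (plus), *Ndufb5* at chr3:32736887-32736971 (plus), *Cox6b1* at chr7:30626282-30626364 (minus), *Ndufa1* at chrX:37191295-37191469 (minus) and *Uqcrh* at chr4:116075248-116075320 (minus).
Uqcrfs1: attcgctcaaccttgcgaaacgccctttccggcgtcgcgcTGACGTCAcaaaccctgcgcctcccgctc
Atp5b: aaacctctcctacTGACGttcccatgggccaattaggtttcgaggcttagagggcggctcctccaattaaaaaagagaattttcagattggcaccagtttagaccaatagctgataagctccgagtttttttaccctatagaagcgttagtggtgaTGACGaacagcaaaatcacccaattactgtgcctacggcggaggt
Ndufb5: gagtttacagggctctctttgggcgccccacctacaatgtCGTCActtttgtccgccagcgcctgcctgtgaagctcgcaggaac
Cox6b1: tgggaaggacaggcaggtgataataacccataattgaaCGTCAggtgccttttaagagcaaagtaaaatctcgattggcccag
Ndufa1: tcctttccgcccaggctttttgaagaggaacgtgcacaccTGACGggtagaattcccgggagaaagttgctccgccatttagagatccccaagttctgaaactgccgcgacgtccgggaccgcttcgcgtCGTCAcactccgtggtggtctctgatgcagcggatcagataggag
Uqcrh: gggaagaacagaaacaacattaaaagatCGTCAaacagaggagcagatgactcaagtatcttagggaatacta

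In *Uqcrfs1* the full element starts 29 bases before the start site. A match is a description of letters, not evidence of binding, and the other 8 members with an entry called lower by knockdown held no TGACG in this window. Sites of factors known to act on respiratory genes were also counted. The NRF1 core GCGCATGC was in 12 members (14.3%) and 3.05% of all genes, the ETS site CCGGAAG bound by GABPA in 25 members (29.8%) and 9.93%, and the YY1 site AAGATGGCG in 9 members (10.7%) and 1.64%. Of the 15 members with an entry called lower by knockdown, 2 held the NRF1 core, 3 the ETS site and 1 the YY1 site.

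Other genes of the same pathway were read in the same fit. The 13 subunits encoded in mitochondrial DNA gave no call in any of the 5 comparisons (limma, 0 at an unadjusted p under 0.05 and 0 by limma-voom), with a median log2 fold change of -0.02 for si*Creb1* with TVA beside the -0.12 of the nuclear members. Of 13 tested partners outside the name pattern, 2 fell with si*Creb1* in the presence of TVA, beside 5.51% of all genes tested called lower. The 2 were *Cycs*, cytochrome *c* itself (20.6 ± 0.67 to 18.4 ± 0.71 FPKM, adjusted p = 0.0283), and *Slc25a5*, an ADP/ATP carrier of the inner membrane (288 ± 3.19 to 267 ± 1.89 FPKM, adjusted p = 0.0154). The median of these partners was -0.10, and in the other comparisons none passed (limma, at most 3 at an unadjusted p under 0.05 and at most 1 by limma-voom).

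Of 18 genes of the tricarboxylic acid cycle and pyruvate dehydrogenase, 2 fell with si*Creb1* in the presence of TVA, beside 5.51% of all genes tested called lower. The 2 were *Pdha1* (31.9 ± 0.73 to 29.4 ± 0.83 FPKM, adjusted p = 0.0290) and *Dld* (21.7 ± 0.46 to 19.7 ± 0.26 FPKM, adjusted p = 0.0154), and the median of the 18 was -0.07. Without TVA *Suclg1*, of succinyl-CoA ligase, fell (16.9 ± 0.76 to 14.9 ± 0.19 FPKM, adjusted p = 0.0139), beside 7.21% of all genes tested called lower. With TVA in siNTC cells *Cs*, citrate synthase, rose (32.9 ± 1.02 to 35.5 ± 0.56 FPKM, adjusted p = 0.0415), beside 4.49% of all genes tested called higher. The 28 tested assembly factors outside the pattern and 11 genes of coenzyme Q synthesis gave no call in any comparison (limma), with at most 5 and 3 at an unadjusted p under 0.05 and 1 and 0 called by limma-voom.

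Of 16 tested regulators of mitochondrial gene expression 3 were called higher in si*Creb1* cells with TVA and 2 without it, beside 4.64 and 6.52% of all genes tested. With TVA, si*Creb1* cells had more *Pprc1*, a coactivator of the PGC-1 family (10.4 ± 0.47 to 12.1 ± 0.43 FPKM, adjusted p = 0.0194), *Ppargc1b*, another (2.24 ± 0.29 to 2.88 ± 0.18 FPKM, adjusted p = 0.0429), and *Twnk*, the mitochondrial DNA helicase (7.11 ± 0.31 to 8.53 ± 0.39 FPKM, adjusted p = 0.0271). Without TVA *Pprc1* (10.6 ± 0.51 to 12.1 ± 0.34 FPKM, adjusted p = 0.0252) and *Gabpb2*, a subunit of the ETS factor named above (16.7 ± 0.37 to 18.4 ± 0.38 FPKM, adjusted p = 0.0181), rose. None of the 16 fell in either comparison.

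The members with the widest range of group means were mostly low ones that no comparison called. *Cox6b2* spanned 0.36 on the log2(FPKM + 1) scale, from 1.65 ± 0.445 FPKM in siNTC to 2.39 ± 0.657 FPKM in si*Creb1*, with overlapping libraries. *Ndufb2* spanned 0.34 (0.822 ± 0.0875 FPKM in siNTC to 1.30 ± 0.0999 FPKM in si*Creb1*) without overlap between these groups, and did not pass. *Cox11*, a copper factor of complex IV assembly, spanned 0.30 (5.06 ± 0.99 to 3.88 ± 0.47 FPKM), and *Ndufa1* and *Ndufa2*, described above, 0.28 and 0.27.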

How the data were processed

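The authors deposited FPKM values, 1 file per library for 12 libraries of mouse CD8+ T cells, with gene positions on GRCm38 (build per the labels). The aligner, counting program and use of strand are not given in the sources used here. FPKM times listed length was a whole multiple of 1 step per library (tolerance 0.05) for at least 99.995% of genes above 0, which gave the recovered reads.

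The 11550 genes with a mean of at least 1 FPKM entered limma 3.58.1 (eBayes with trend, R 4.3.3) as log2(FPKM + 1). All 12 libraries entered 1 fit, with Benjamini-Hochberg adjustment over all genes and a threshold of 0.05. A fold change on this scale understates the change of low genes. There were 5 comparisons, of which several share groups. The fit was tested on simulated data. Plots used Matplotlib 3.10.9 (Python 3.11.15).

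The members, roles, gene lists and motifs were chosen with earlier results of these data known. Named are *Creb1*, every member called (the 5 smallest p where fewer than 5 passed), the 2 highest and lowest of each complex, genes at the FPKM minimum, isoform families, called list genes and the 5 widest ranges. Alternatives were another pseudocount, other filters, quantile normalization, TPM, no trend, a replicate block, limma-voom on the reads, fitting each comparison on its own 6 libraries, and leaving out each library. Counts cover all members, and 1 member is not reported here by name.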

Additional observations from a re-analysis of the deposited data

How the results depend on the processing

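The calls changed with the scaling, the filter, the trend setting and the libraries kept. For si*Creb1* with TVA the 18 members called became 0 after rescaling to TPM, 5 by TPM over protein-coding genes, 2 by quantile normalization, 8 with all genes above 0 in at least 1 library and 9 without a trend, and the median of -0.12 became -0.0648, -0.0656 and -0.0757 under the first 3. TPM over protein-coding genes was added after seeing the data, because 1 row of 57 bases holds 3.58 to 9.11% of the FPKM total. Less the median of all genes, which TPM moved from -0.01 to 0.04, the members stood at -0.10 in FPKM and in both TPM scalings and at -0.07 after quantile normalization. For si*Creb1* without TVA the 9 calls became 2, 5, 3 and 4 under TPM, TPM over protein-coding genes, quantile normalization and all genes above 0, and 3 in a fit of only the libraries compared, and the median of -0.02 became 0.0225, 0.0165 and -0.0011 under the first 3. For TVA in siNTC cells the 3 calls became 1 by TPM, by quantile normalization and without a trend, 0 with all genes above 0 and with only the libraries compared, and 7 by limma-voom. For TVA in si*Creb1* cells the median was -0.0025 by TPM over protein-coding genes. The interaction gave 1 call (*Ndufb3*) with a pseudocount of 0.1, a mean FPKM of at least 5, limma-voom and the replicate block. The causes were not tested. Leaving out 1 library gave 0 to 3 calls and medians of 0.03 to 0.06 for TVA in siNTC cells, 0 and -0.03 to -0.02 for TVA in si*Creb1* cells, 4 to 8 and -0.04 to -0.01 for si*Creb1* without TVA (4, 5 and 5 without si*Creb1* replicates 1, 2 and 3), 6 to 11 and -0.13 to -0.10 with TVA, and 0 to 1 and -0.0761 to -0.0462 for the interaction. *Creb1* stayed between -2.37 and -2.20 without TVA and between -2.41 and -2.22 with it. After the group means were subtracted, same-numbered libraries correlated at -0.06 to 0.06 across genes. This gave no sign of an effect shared by the number and does not show where the libraries came from. Entering the number as a replicate block gave counts of 2, 0, 6, 16 and 1 in the order above. Over all alternatives the named members changed direction in 0 refits, kept their side of the threshold in 437, lost the call in 249 and gained it in 11. The 437 include refits of named members that were not called, which had no call to lose. Called members ranged widely: for si*Creb1* without TVA, *Cox7a2l* kept its call in 16 of 16 refits and *Atp5c1* in 2 of 16.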
